A study of Mus musculus with 60 samples.

Results

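The genes of 2 families of chromatin remodelling complexes, BAF and NuRD, were followed in nascent RNA from mouse embryonic stem cells after knockdown of the nuclear receptor Esrrb. The set holds 32 genes, 21 coding for BAF subunits and 11 for NuRD subunits, listed by symbol, out of 24260 gene symbols in the data. They have 53 RefSeq transcripts in all, and for the 13 genes with several the transcript with the highest RPKM summed over the libraries was used. RPKM is the number of reads per kilobase of gene, scaled to library depth, so that levels can be compared between genes. A mean of at least 0.5 RPKM was reached by 9739 genes, among them 29 of the 32 (18 BAF, 11 NuRD). Smarca2, Smarcd3 and Dpf3 lay under that minimum and are described by their values.

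The cells were E14 mouse embryonic stem cells, an established line, grown with LIF and serum. The control group (siCtrl, 2 libraries) received a control siRNA and the knockdown group (siEsrrb, 2 libraries) an siRNA against Esrrb, both by transfection with Lipofectamine RNAiMAX and harvest after 72 h. RNA was taken from the chromatin pellet and sequenced from stranded libraries depleted of ribosomal RNA. The other 56 of the 60 samples of the series were not analysed here. The series text excepts the nascent RNA from its statement on biological replicates, so p-values measure only the spread between libraries, which may be technical.

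BAF complexes, the mammalian SWI/SNF family, use the ATPase Smarca4 or Smarca2 to slide or evict nucleosomes and mostly open chromatin at enhancers and promoters. They share a core and differ in added subunits: Arid1a or Arid1b with Dpf proteins in canonical BAF, Arid2, Pbrm1, Brd7 and Phf10 in PBAF, and Brd9 in non-canonical BAF. NuRD couples a CHD ATPase to the histone deacetylases Hdac1 and Hdac2, and is best known in stem cells for damping transcription so that cells can leave the pluripotent state; most of its positions can be filled by alternative paralogs.

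Esrrb itself was the check of the knockdown. Its transcript NM_011934 measured 3.39 and 3.10 scaled RPKM (values multiplied by a factor per library) in siCtrl replicates 1 and 2, and 1.50 and 2.08 in siEsrrb replicates 1 and 2. The knockdown libraries were both lower, at 44.2% of control in replicate 1 and 67.0% in replicate 2. The fitted log2 fold change was −0.72 (SE 0.15), with an adjusted p of 0.280 in limma, so the target itself did not pass the test. Depth was 24764879 and 68002338 reads in siCtrl replicates 1 and 2, and 22363943 and 61857158 in siEsrrb; the replicate 2 libraries are the deeper in both groups. All 8 stem cell markers were above the minimum, with a summed level of 95.5 to 102 scaled RPKM in siCtrl and 84.2 to 98.6 in siEsrrb. That sum joins markers that went opposite ways. In both knockdown libraries 3 lay below both controls: Zfp42 (46.6% and 62.8% of control), Dppa5a (63% and 65%) and Nanog (67% and 73%). Only 1, Pou5f1, lay above both controls (169% and 108%), and the rest overlapped. The 8 neural markers summed to 4.79 to 5.53 in siCtrl and to 7.79 to 8.16 in siEsrrb, with 3 of 8 above the minimum and Neurog2 at 0. Nes carried the difference in the sum: the other 7 summed to 2.52 and 2.13 in siCtrl and 2.24 and 2.48 in siEsrrb. Within these, markers went both ways. Sox1 lay above both controls in both knockdown libraries (129% and 194% of control), as did Map2 near 0 (175% and 127%). Tubb3 lay below both controls in both knockdown libraries (59.0% and 64.4% of control). Fibroblast markers (0 of 8 above the minimum, Lum at 0) summed to 0.189 to 0.512 and 0.305 to 0.680, and mesoderm and endoderm markers (0 of 8) to 0.608 to 0.811 and 0.738 to 0.747. In bulk RNA, fewer cells of a type and less RNA per cell cannot be told apart, and the part of the Nes difference in the values below was not tested.

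None of the 29 remodeller genes passed limma's test after Benjamini-Hochberg adjustment, and none had an unadjusted p under 0.05. Over all 9739 genes the same test called 0% after adjustment and 11.3% (1096 genes) before it. The lowest adjusted p of a member was 0.489, for Dpf1. Members were next counted as apart where both libraries of a group lay above both of the other. Over all genes 43.8% were apart, 21.9% higher and 22.0% lower in siEsrrb. Of the 29 members 10 were apart (34.5%), 6 of them higher in siEsrrb (Smarcc1, Smarcc2, Arid2, Pbrm1, Ss18, Mta1) and 4 lower (Dpf1, Chd3, Hdac1, Hdac2). That share lies below the share of all genes. Without scaling of the libraries the split was 6 higher to 9 lower, and with upper-quartile scaling 5 to 5. The share of all genes apart is not given at either of these settings. Whether these splits are particular to the members therefore cannot be read from them. A second count took genes whose ratio was at least 1.1-fold in both replicate numbers. It held 6 members higher (Smarcd1, Arid2, Pbrm1, Chd4, Mbd3, Mta1) and 3 lower (Dpf1, Chd3, Hdac1), beside 17.5% and 15.3% of all genes. Of the 17 alternatives tried, only with limma's voom on reads recovered from the RPKM, and with the replicate number as a block, did members pass an adjusted threshold. There 10 members passed, 6 higher and 4 lower, beside 28.3% of all genes (13.2% higher and 15.1% lower), but no label says that the numbers pair the libraries. The library sizes of that fit were corrected after its calls had been seen.

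**Figure D1:**
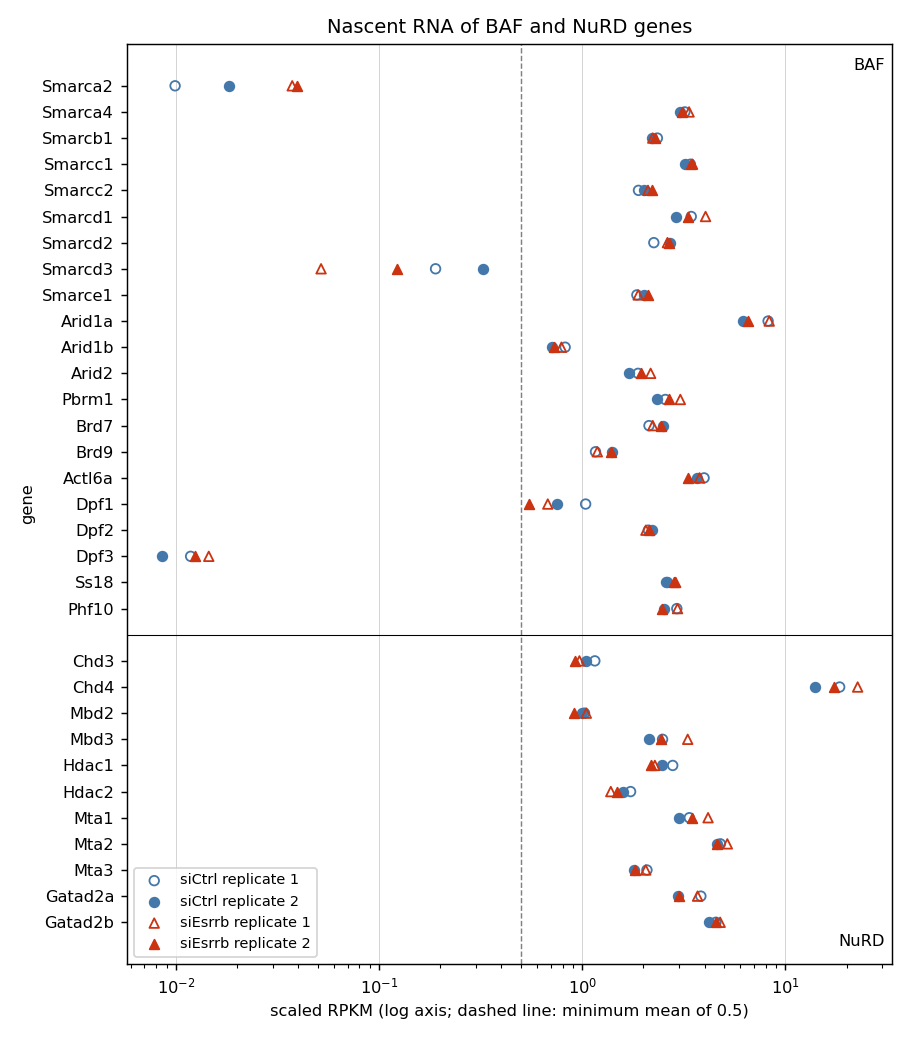
Scaled RPKM of each BAF and NuRD gene (log axis), with 1 symbol per library: circles for siCtrl, triangles for siEsrrb, open for replicate 1 and filled for replicate 2; the dashed line is the minimum mean of 0.5 RPKM. Chd4 stands highest, and Smarca2, Smarcd3 and Dpf3 lie left of the line.

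Promoter sequences are shown for 4 genes that the values below turn on: Dpf1 and Smarcd3, lower in siEsrrb, and Pbrm1 and Mta1, higher in siEsrrb. Each is the 250 bases before the RefSeq start in GRCm38.p6, read 5′ to 3′ on the gene's strand, with CpG dinucleotides in capitals. The positions are chr7:29303755-29304004 (plus strand) for Dpf1, chr5:24602003-24602252 (minus) for Smarcd3, chr14:31018888-31019137 (plus) for Pbrm1 and chr12:113098028-113098277 (plus) for Mta1.
Dpf1: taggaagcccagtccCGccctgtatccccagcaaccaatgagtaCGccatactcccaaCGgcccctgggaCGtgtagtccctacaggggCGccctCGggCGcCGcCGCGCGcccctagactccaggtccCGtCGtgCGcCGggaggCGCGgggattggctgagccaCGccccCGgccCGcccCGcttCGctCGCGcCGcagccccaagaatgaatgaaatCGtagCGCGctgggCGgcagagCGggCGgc
Smarcd3: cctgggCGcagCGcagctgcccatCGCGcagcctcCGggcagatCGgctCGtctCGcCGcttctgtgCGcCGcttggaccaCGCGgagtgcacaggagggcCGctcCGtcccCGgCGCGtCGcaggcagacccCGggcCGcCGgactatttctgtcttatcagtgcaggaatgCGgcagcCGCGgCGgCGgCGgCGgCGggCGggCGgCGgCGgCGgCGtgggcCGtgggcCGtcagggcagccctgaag
Pbrm1: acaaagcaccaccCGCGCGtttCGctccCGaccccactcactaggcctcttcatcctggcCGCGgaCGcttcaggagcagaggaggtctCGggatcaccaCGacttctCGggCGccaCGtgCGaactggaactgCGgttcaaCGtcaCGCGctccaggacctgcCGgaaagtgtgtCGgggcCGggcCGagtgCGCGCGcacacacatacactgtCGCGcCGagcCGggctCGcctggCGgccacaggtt
Mta1: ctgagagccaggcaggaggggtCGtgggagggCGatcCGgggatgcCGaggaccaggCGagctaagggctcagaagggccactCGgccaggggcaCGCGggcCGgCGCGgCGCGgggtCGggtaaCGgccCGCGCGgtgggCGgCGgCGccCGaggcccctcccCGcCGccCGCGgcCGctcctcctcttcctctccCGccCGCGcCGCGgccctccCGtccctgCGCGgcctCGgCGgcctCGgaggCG

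All 4 are rich in CpG: the stretches hold 31 (Dpf1), 38 (Smarcd3), 31 (Pbrm1) and 39 (Mta1) CpG dinucleotides, whichever way the gene's value went. The longer RefSeq windows, which add 50 bases after the start, were found for 25 members (30 windows). They held a median of 30.5 CpG (4 to 62), against 7 (0 to 67) over 32851 windows of all genes. Esrrb binds the letters TCAAGGTCA, whose shorter form is AAGGTCA. Searched on both strands, AAGGTCA was in 0 of the 30 member windows and in 4.72% of all windows, and TCAAGGTCA, which contains it, was in 0 and in 0.423%. These letters are therefore not in these windows; nothing more was tested.

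The BAF ATPases stood far apart in level. Smarca4 (NM_001174078), the ATPase that stem cells use, measured 3.20 and 3.04 scaled RPKM in siCtrl and 3.36 and 3.11 in siEsrrb. The groups overlapped, and the log2 fold change was 0.04 (SE 0.08; limma adjusted p = 0.882). Smarca2 (NM_026003), the alternative ATPase that prevails in many differentiated tissues, measured 0.00991 and 0.0182 in siCtrl and 0.0374 and 0.0394 in siEsrrb. Both knockdown libraries were higher, at 377% and 217% of their controls, from at least 7 and 40 reads in siCtrl and 23 and 77 in siEsrrb. Fitted without the minimum, where the pseudocount of 0.5 RPKM dominates so low a gene, its log2 fold change was 0.07 (SE 0.01; limma adjusted p = 0.373). Its other transcript, NM_011416, had deposited RPKM of 0.0128 and 0.0196 in siCtrl and 0.0271 and 0.0252 in siEsrrb, also higher in both. Smarca4 made up 99.7% and 99.4% of the summed ATPase level in siCtrl and 98.9% and 98.8% in siEsrrb.

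Among the core subunits, the paired scaffold proteins Smarcc1 and Smarcc2 were both apart. Smarcc1 (NM_009211) measured 3.40 and 3.20 scaled RPKM in siCtrl and 3.49 and 3.42 in siEsrrb, a log2 fold change of 0.06 (SE 0.08). Smarcc2 (NM_001114096) measured 1.89 and 2.02 in siCtrl and 2.11 and 2.20 in siEsrrb, a log2 fold change of 0.11 (SE 0.07; limma adjusted p = 0.617). Both knockdown libraries lay above both controls for each gene, but for Smarcc1 the nearest libraries of the groups almost touch. Smarcb1, the small core subunit lost in rhabdoid tumours, measured 2.34 and 2.20 in siCtrl and 2.22 and 2.27 in siEsrrb, and Smarce1, an HMG-box subunit, 1.86 and 2.02 against 1.89 and 2.11. Both overlapped, with log2 fold changes of −0.01 and 0.03. Actl6a, the actin-related subunit of stem cells, measured 3.98 and 3.67 in siCtrl and 3.78 and 3.30 in siEsrrb, also with overlap (log2 fold change −0.10, SE 0.10).

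The 3 Smarcd paralogs, of which a complex carries only a single type, differed in the direction of their values. Smarcd1 (NM_031842) measured 3.44 and 2.91 scaled RPKM in siCtrl and 4.04 and 3.32 in siEsrrb. Each knockdown library was above the control of its own number, at 118% and 114%. However, siCtrl replicate 1 lay above siEsrrb replicate 2 (log2 fold change 0.18, SE 0.14, limma adjusted p = 0.66). Smarcd2 (NM_031878) measured 2.25 and 2.70 in siCtrl and 2.63 and 2.68 in siEsrrb, with overlap. Smarcd3 (NM_025891), a subunit best known from heart and muscle BAF, measured 0.190 and 0.326 in siCtrl and 0.0518 and 0.122 in siEsrrb. Its knockdown libraries were both lower, at 27.3% and 37.6% of their controls, the lowest percentages in the set, from at least 42 and 225 reads in siCtrl and 10 and 75 in siEsrrb. In the fit without the minimum its log2 fold change was −0.36 (SE 0.12; limma adjusted p = 0.508). Of the Smarcd total, Smarcd3 made up 3.23% and 5.49% in siCtrl and 0.771% and 2.00% in siEsrrb. Its neighbour Chpf2 overlaps 5.58% of its annotated span and measured 2.03 and 2.11 in siCtrl and 2.83 and 2.52 in siEsrrb. The part of overlapping reads was not tested.

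In canonical BAF, Arid1a (NM_001080819), the large DNA-binding subunit, had the highest level of the BAF genes. It measured 8.21 and 6.16 scaled RPKM in siCtrl and 8.32 and 6.51 in siEsrrb. The 2 libraries of each replicate number lay together and the replicate numbers stood apart, with a log2 fold change of 0.05 (SE 0.20). Arid1b measured 0.824 and 0.712 in siCtrl and 0.790 and 0.729 in siEsrrb (log2 fold change −0.01), so that Arid1a made up 89.6% to 91.3% of the pair in all 4 libraries. The Dpf proteins read acetylated histone tails through PHD fingers. Dpf1 (NM_013874), the form known from neuronal BAF, measured 1.04 and 0.753 in siCtrl and 0.677 and 0.545 in siEsrrb. Both knockdown libraries lay below both controls, at 65.1% and 72.4%, the largest fitted difference among the tested members (log2 fold change −0.32, SE 0.14; limma adjusted p = 0.489). Dpf2, the form of stem cells, measured 2.12 and 2.21 in siCtrl and 2.06 and 2.13 in siEsrrb, with overlap and a log2 fold change of −0.04. Dpf3 was near 0, at 0.0118 and 0.00851 in siCtrl and 0.0145 and 0.0124 in siEsrrb. Ss18, shared by canonical and non-canonical BAF, measured 2.60 and 2.62 in siCtrl and 2.88 and 2.84 in siEsrrb; both knockdown libraries were higher (log2 fold change 0.11, SE 0.07; limma adjusted p = 0.605). Brd9, the bromodomain subunit of non-canonical BAF, measured 1.16 and 1.40 in siCtrl and 1.19 and 1.38 in siEsrrb, with no gap between the groups.

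Arid2 and Pbrm1, which define PBAF, were both apart and higher. Arid2 (NM_175251), its ARID subunit, measured 1.88 and 1.70 scaled RPKM in siCtrl and 2.17 and 1.94 in siEsrrb, at 115% and 114% of control (log2 fold change 0.16, SE 0.09; limma adjusted p = 0.575). Pbrm1 (NM_001081251), its subunit with many bromodomains, measured 2.56 and 2.34 in siCtrl and 3.04 and 2.68 in siEsrrb, at 118% and 115% (log2 fold change 0.19, SE 0.09; limma adjusted p = 0.547). In both genes all knockdown values lay above all control values. Smim4 overlaps 32.7% of the Pbrm1 span and measured 0.354 and 0.427 in siCtrl and 0.450 and 0.547 in siEsrrb. The other PBAF genes overlapped between groups: Brd7 measured 2.13 and 2.50 in siCtrl and 2.22 and 2.43 in siEsrrb. Phf10, the PHD-finger subunit, measured 2.92 and 2.53 against 2.94 and 2.48. The median log2 fold change was 0.08 over the 4 PBAF genes, −0.02 over the 4 tested canonical BAF genes and 0.05 over the 8 tested core and ATPase genes, beside 0.00 over all genes (−0.00087).

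Among the NuRD enzymes, Chd4 was higher in siEsrrb within each replicate number, and Chd3, Hdac1 and Hdac2 were lower. Chd4 (NM_145979), the main NuRD ATPase, had the highest level of all members, 18.5 and 14.0 scaled RPKM in siCtrl and 22.7 and 17.2 in siEsrrb. It stood at 123% and 124% of control by replicate number, but siCtrl replicate 1 lay above siEsrrb replicate 2 (log2 fold change 0.29, SE 0.22; limma adjusted p = 0.674). Chd3 (NM_146019), its paralog, measured 1.15 and 1.04 in siCtrl and 0.969 and 0.926 in siEsrrb, below both controls in both libraries (84.0% and 89.1%; log2 fold change −0.14, SE 0.07; limma adjusted p = 0.546). Hdac1 (NM_008228), a deacetylase also used by other corepressors, measured 2.79 and 2.48 in siCtrl and 2.28 and 2.18 in siEsrrb. Its knockdown libraries lay below both controls, at 81.7% and 87.8% (log2 fold change −0.20, SE 0.08, limma adjusted p = 0.495). Hdac2 (NM_008229) measured 1.73 and 1.58 in siCtrl and 1.38 and 1.48 in siEsrrb, also below both controls, at 79.9% and 93.5% (log2 fold change −0.16, SE 0.07; limma adjusted p = 0.516). The median over these 4 enzymes was −0.15.

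Of the MBD proteins, which are alternatives within NuRD, Mbd3 is the form best known from stem cells and Mbd2 the form that binds methylated DNA. Mbd3 (NM_001306143) measured 2.48 and 2.14 scaled RPKM in siCtrl and 3.30 and 2.44 in siEsrrb. It stood at 133% and 114% of control, and siCtrl replicate 1 lay just above siEsrrb replicate 2 (log2 fold change 0.25, SE 0.16; limma adjusted p = 0.608). A long non-coding gene, Gm30823, overlaps 36.2% of the Mbd3 span and has no value of its own here. Mbd2 (NM_001311071) measured 1.03 and 0.992 in siCtrl and 1.05 and 0.912 in siEsrrb, with overlap. The MTA proteins are scaffolds that hold the deacetylases. Mta1 (NM_054081) measured 3.36 and 2.98 in siCtrl and 4.16 and 3.47 in siEsrrb, above both controls in both libraries, at 124% and 117% (log2 fold change 0.23, SE 0.12; limma adjusted p = 0.558). Mta2 measured 4.78 and 4.61 in siCtrl and 5.17 and 4.60 in siEsrrb, and Mta3 2.08 and 1.80 against 2.05 and 1.82; both overlapped, with log2 fold changes of 0.05 and −0.00. Gatad2a, which links the MBD protein to the CHD ATPase, measured 3.83 and 2.97 in siCtrl and 3.69 and 2.98 in siEsrrb, and its paralog Gatad2b 4.55 and 4.21 against 4.77 and 4.53. Neither was apart.

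**Figure D2:**
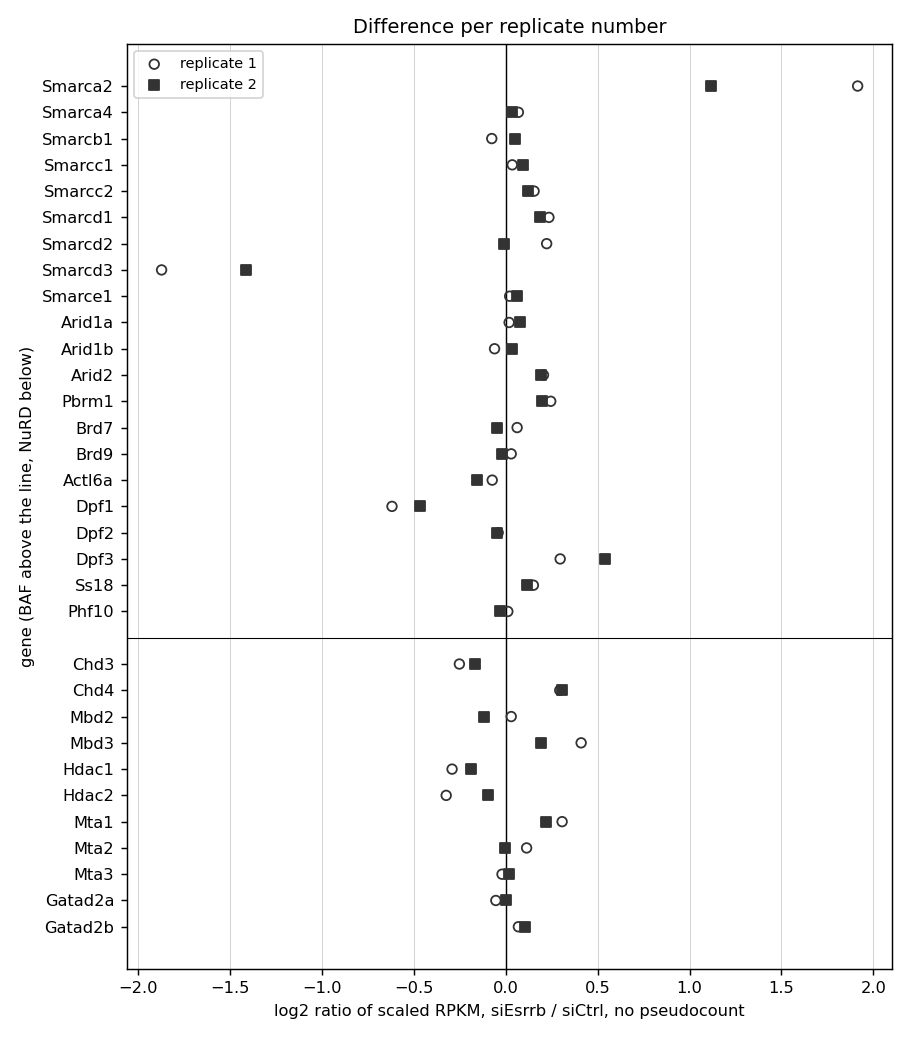
Log2 ratio of scaled RPKM in siEsrrb to siCtrl for each gene, computed within replicate 1 (open circles) and within replicate 2 (filled squares) with no pseudocount. Smarca2, Smarcd3, Dpf1 and Dpf3 lie farthest from 0, and Chd4 lies at nearly the same place in both replicates.

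The spread between replicate numbers was as large as the difference between groups for most members. In 19 of the 29 (65.5%) the difference between replicates 1 and 2 exceeded the difference between siEsrrb and siCtrl, against 51.8% of all genes. The median absolute difference in log2(RPKM + 0.5) was 0.08 between groups and 0.12 between replicate numbers in the members, and 0.10 and 0.11 over all genes. Arid1a, Chd4, Gatad2a and Phf10 show this pattern in the values above, each with replicate 1 above replicate 2 in both groups.

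BAF and NuRD were then set against each other. BAF had 6 of 18 genes apart, 5 higher and 1 lower, and NuRD 4 of 11, 1 higher and 3 lower. These shares, 33.3% and 36.4%, both lie below the 43.8% of all genes. The median log2 fold change was 0.04 over BAF (range −0.32 to 0.19) and −0.0014 over NuRD (range −0.20 to 0.29). The median absolute log2 fold change was 0.05 over BAF, 0.14 over NuRD and 0.10 over all genes. No difference between the complexes was tested, since the genes of a complex are not replicates of a condition.

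Alternative paralogs were compared as log2 ratios within each library, which for 13 pairs could be computed with both genes above the minimum. Groups were apart in 5 of the 13 pairs (38.5%). Of single genes, 43.8% were apart over all genes, but a ratio is another measure. No share over other gene pairs was computed. All 5 had the higher ratio in siEsrrb, but that direction depends on which paralog is put first, and 2 of the 5 pairs share Mta1. For Chd4 to Chd3 the log2 ratio was 3.52 and 3.23 in siCtrl and 3.98 and 3.64 in siEsrrb, a mean change of 0.43, the largest of the 13. Dpf2 to Dpf1 gave 0.77 and 1.11 in siCtrl and 1.12 and 1.33 in siEsrrb, a change of 0.29 that comes with the lower Dpf1 value. Mbd3 to Mbd2 gave 0.97 and 0.82 in siCtrl and 1.30 and 1.06 in siEsrrb, a change of 0.28. Mta1 was higher relative to both of its paralogs: the ratio to Mta2 was −0.45 and −0.55 in siCtrl and −0.28 and −0.36 in siEsrrb. The ratio to Mta3 was 0.58 and 0.60 in siCtrl and 0.87 and 0.77 in siEsrrb. In these pairs the replicate numbers differed as well, but no siEsrrb ratio fell within the siCtrl range. For Dpf2 to Dpf1 the nearest libraries almost touch, at 1.112 in siCtrl replicate 2 and 1.12 in siEsrrb replicate 1. The exact two-sided permutation test over libraries gave p = 0.333 for each of these 5 pairs, the smallest that 2 against 2 libraries allow, and 0.788 after adjustment over the 13. In the other 8 pairs the groups overlapped, with changes of −0.11 for Arid1a to Arid2, −0.10 for Gatad2a to Gatad2b, 0.10 for Smarcd1 to Smarcd2, −0.06 for Smarcc1 to Smarcc2, 0.05 for Arid1a to Arid1b and for Mta2 to Mta3, −0.04 for Hdac1 to Hdac2 and −0.0025 for Brd9 to Brd7.

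**Figure D3:**
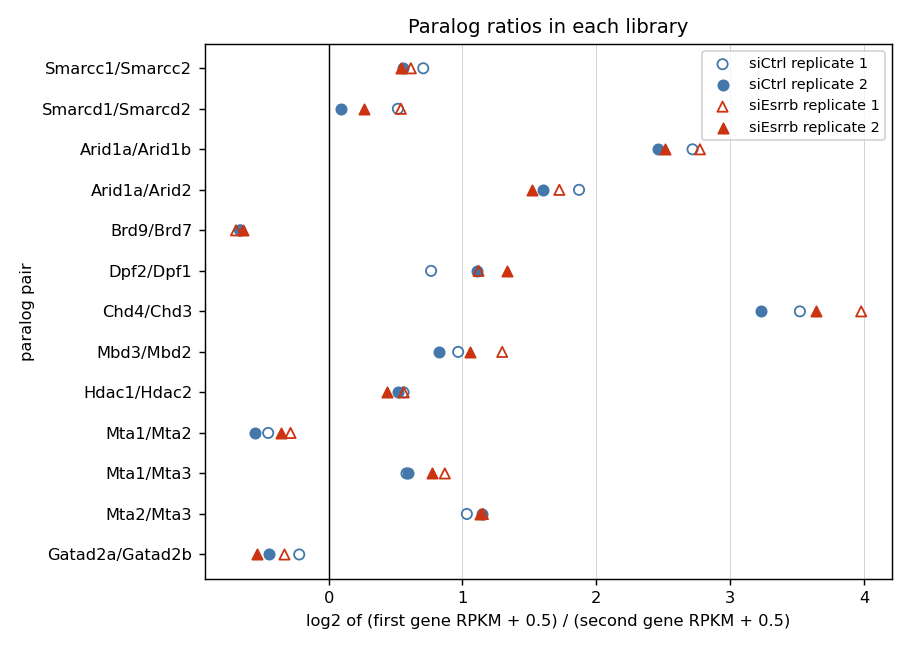
Log2 ratio of the RPKM (plus 0.5) of the first to the second gene of each paralog pair in each library, with symbols as for the levels. The triangles of siEsrrb lie to the right of both siCtrl circles for Dpf2/Dpf1, Chd4/Chd3, Mbd3/Mbd2, Mta1/Mta2 and Mta1/Mta3. For Dpf2/Dpf1 the nearest symbols of the groups almost touch.

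As shares of the summed RPKM of a paralog group, Chd4 made up 94.1% and 93.1% of Chd3 and Chd4 in siCtrl and 95.9% and 94.9% in siEsrrb. Mbd3 made up 70.8% and 68.3% of the MBD pair in siCtrl and 75.9% and 72.8% in siEsrrb. Both shares were higher in siEsrrb without overlap. The other Mbd2 transcript, NM_010773, had a lower RPKM in every library than the one used. The size of the Mbd3 share and of the ratio of Mbd3 to Mbd2 therefore depends on the transcript taken. Dpf2 made up 66.8% and 74.4% of the Dpf level in siCtrl and 74.8% and 79.3% in siEsrrb. Mta1 made up 32.9% and 31.7% of the MTA level in siCtrl and 36.5% and 35.1% in siEsrrb, and Mta2 stayed the largest of the 3 in every library (45.4% to 49.1%). The Hdac1 share was 61.7% and 61.0% in siCtrl and 62.2% and 59.5% in siEsrrb, the 2 deacetylases being lower together.

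Other remodeller genes, listed by complex, gave the setting for these values, and none passed the adjusted test. Their counts of genes apart are small and are to be read against the 43.8% apart over all genes: 62.5% of the tested other BAF subunits, 50% of the NuRD partners, 60% of the ISWI genes, 45% of the INO80 and SRCAP genes and 45.5% of the other ATPases. Of 8 tested other BAF subunits, 4 were apart and higher and 1 lower, with a median log2 fold change of 0.08. Bcl11a, a zinc-finger BAF subunit of neural and blood cells, measured 0.226 and 0.174 scaled RPKM in siCtrl and 1.08 and 0.684 in siEsrrb, at 481% and 392% of control (log2 fold change 0.97, SE 0.17; limma adjusted p = 0.252). Both of its knockdown libraries lay well above both controls. It reached the minimum of 0.5 RPKM only through siEsrrb (mean 0.885, against 0.200 in siCtrl). Its place in the counts and median of its list rests on that, and it is not ranked against the members. Actb, an actin subunit of BAF as well as a cytoskeletal protein, measured 46.9 and 45.1 in siCtrl and 70.9 and 53.8 in siEsrrb (log2 fold change 0.42, SE 0.19), and Bicral, of non-canonical BAF, 1.66 and 1.36 against 1.23 and 1.23 (log2 fold change −0.21). Of 8 tested NuRD partners, 1 was apart and higher and 3 lower. Zfp296, a stem cell zinc-finger partner of NuRD, measured 1.94 and 1.64 in siCtrl and 1.47 and 1.09 in siEsrrb (log2 fold change −0.37, SE 0.14). Zmynd8 was apart and higher by 0.13 and the histone demethylase Kdm1a apart and lower, with a log2 fold change of −0.12.

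Of the ISWI family 3 of 10 tested genes were apart and higher and 3 lower, with the largest values for the scaffold Bptf (0.19) and for Chrac1 (0.16), and for Baz2a (−0.21) and Baz1a (−0.17). The INO80 and SRCAP family had 3 higher and 6 lower of 20, led by Ino80b (0.21), Znhit1 (0.15), Ino80d (−0.21) and Actr6 (−0.16). Among 11 other CHD and SNF2 ATPases 4 were higher and 1 lower. Chd9 measured 2.72 and 2.79 scaled RPKM in siCtrl and 3.58 and 3.56 in siEsrrb, at 132% and 128% of control (log2 fold change 0.32, SE 0.07; limma adjusted p = 0.305), Chd7 had a log2 fold change of 0.22, and Smarcad1 one of −0.20. Medians were 0.08 in the NuRD partners, 0.0034 in ISWI, 0.0020 in INO80 and SRCAP and −0.02 in the other ATPases, so that the BAF and NuRD medians lie within the range of the other lists.

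**Figure D4:**
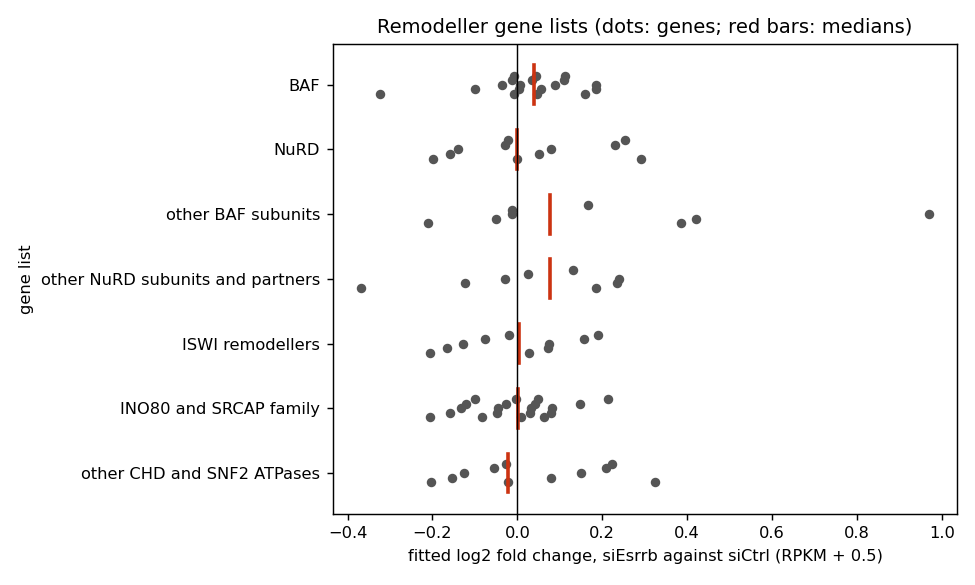
Fitted log2 fold change of each tested gene (dots), as the log2(RPKM + 0.5) of siEsrrb minus that of siCtrl, by remodeller list, with the list's median as a red bar. The medians lie between −0.02 and 0.08. Bcl11a, which reached the minimum only through its siEsrrb values, is the dot at 0.97 among the other BAF subunits.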

How the data were processed

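The authors deposited 1 RPKM value per RefSeq transcript and library for 34929 transcripts. The submitters' processing notes name CASAVA 1.4, Bowtie 1.1.1, Bowtie2, TopHat2 and the build mm9; the counting program, the annotation and the use of strand are not stated in them. Where strand is not used, reads of overlapping or antisense genes cannot be told apart: 17 members overlap an annotated gene, 4 of them a protein-coding gene. Symbols were found for 34631 transcripts; 298 without were left out. A deposited table of the series holds the replicate 1 values and added no data.

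Whole reads were recovered from the RPKM for 31753 of 31771 transcripts (99.94%, within 0.001 of a read); a common factor can remain undetermined, so reads are given as minima. Lengths matched the gene span with introns within 1% for 74.7% of 15772 genes with a single transcript. RPKM were multiplied per library by median-of-ratios factors (1.049 and 0.9246 in siCtrl, 1.087 and 0.9478 in siEsrrb), and log2(RPKM + 0.5) was tested with limma 3.58.1 in R 4.3.3 (2 groups, mean-variance trend, two-sided, Benjamini-Hochberg over 9739 genes, threshold 0.05). The scale understates changes of low genes. The fit was checked on simulated data with changed genes of at least 20 expected reads, a limit set after wrong signs were seen. The planted changes were larger than the fitted difference of any member, and no replicate difference was simulated. The check therefore does not bear on differences of the members' size. Titles number the libraries but no label pairs them.

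The text names all members, Esrrb, and of each other list up to 2 genes per direction that were apart with the largest absolute log2 fold change. Further genes of the marker lists are also named. Members, lists and tests were chosen with earlier results of these data known.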

Additional observations from a re-analysis of the deposited data

How the results depend on the processing

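Of the 19 tested members that were not apart, 13 changed the sign of their fold change under at least 1 of 17 alternatives, among them Arid1a (−0.15 to 0.24), Gatad2a (−0.18 to 0.14), Smarcd2 (−0.02 to 0.20) and Smarce1 (−0.03 to 0.10). The 10 that were apart cannot change sign by leaving out a library, so their constant sign there shows nothing; 4 of them fell under a mean RPKM of 2 and have no value at that filter. No paired design is stated; deviations of same-numbered libraries from their group means correlated at 0.378 over 2 numbers, too few to establish pairing. With a replicate block limma called 0 genes (2553 at an unadjusted p under 0.05). limma's voom on the recovered reads, added to the RPKM test, called 0 genes without the replicate block (1193 unadjusted) and with it 2754 genes, 28.3% of 9732, and 10 members: Smarcd1, Arid2, Pbrm1, Chd4, Mbd3 and Mta1 higher, and Dpf1, Chd3, Hdac1 and Hdac2 lower. Genes past the test numbered 0 to 6 when a library was left out (2 without siCtrl 1, 2 without siEsrrb 1, 6 without siEsrrb 2), and members 0. Members apart and lower were 1 with a mean RPKM of at least 2 and 9 without scaling, and 5 to 9 with a library left out. Members apart and higher were 7 to 16 with a library left out. The filter at a mean RPKM of 2 tested 3889 genes. The share of all genes apart is not given at these settings. These counts, and those of the other remodeller lists below, therefore have no background and show nothing particular to the members. The BAF median of 0.0393 was 0.046 at a mean of at least 2, 0.0027 without scaling, 0.0455 with upper-quartile scaling, 0.047 with voom, 0.0482 with voom and the replicate block, 0.03 with the transcript of most reads, and 0.0504 to 0.0711 with a library left out. The NuRD median of −0.0014 was 0.0781 at a mean of at least 2, −0.0358 without scaling, 0.0135 with the transcript of most reads, and −0.0671 to 0.1111 with a library left out (0.0796 without siCtrl 1, 0.1111 without siEsrrb 2), so its sign is not settled. Paralog pairs apart numbered 8 with no filter or with at least 20 reads (also with the replicate block), 1 at a mean of at least 2, and 7 to 10 with a library left out; genes apart in the other remodeller lists were 29, or 15 at a mean of at least 2 and 38 to 47 with a library left out. Leaving out a library leaves 1 against 2, which by construction puts more genes apart; limma then takes the lone sample to vary like the rest. The read filter and the transcript of most reads were chosen after seeing the data, and the library sizes of voom were corrected from column sums to the RPKM totals after its calls were seen, which changed both counts of calls with the replicate block. The paralog count was not run under voom. With 2 libraries a group, differences of the size of most members are near the replicate spread.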

Other observations

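Bcl7c, a small BAF subunit outside the 32 genes that was picked here after its values were seen, measured 0.749 and 0.732 scaled RPKM in siCtrl and 1.13 and 1.11 in siEsrrb, at 151% and 152% of control. Its log2 fold change was 0.39 (SE 0.06), with an adjusted p of 0.250 in limma, a value it shares with Nes, whose unadjusted p is the smaller (0.00102 against 0.00302). Smarca1, an ISWI ATPase under the minimum level and also picked after its values were seen, measured 0.0846 and 0.0753 in siCtrl and 0.146 and 0.128 in siEsrrb, higher in both knockdown libraries. Alternative transcripts had levels of their own: Mbd2 transcript NM_010773 had deposited RPKM of 0.760 and 0.809 in siCtrl and 0.682 and 0.776 in siEsrrb, and Smarcd2 transcript NM_001130187 had 1.74 and 2.21 against 1.75 and 2.16.

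Beside these, the marker lists held values on cell state. Zfp42 measured 18.8 and 16.3 scaled RPKM in siCtrl and 8.75 and 10.2 in siEsrrb, Dppa5a 15.2 and 15.4 against 9.55 and 10.0, and Pou5f1 12.1 and 14.7 against 20.4 and 15.9. Nes measured 3.02 and 2.66 in siCtrl and 5.92 and 5.31 in siEsrrb, and Sox1 0.598 and 0.472 against 0.771 and 0.915. Map2, near 0, was also higher, at 0.0386 and 0.0387 in siCtrl against 0.0676 and 0.0492 in siEsrrb. Tubb3 and Pax6 did not follow. Tubb3 measured 0.568 and 0.437 in siCtrl and 0.335 and 0.282 in siEsrrb, and Pax6 1.28 and 1.16 against 1.04 and 1.20 (log2 fold change −0.09). Their part in the remodeller values was not tested.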
